A study of Mus musculus with 8 samples.

Results

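Thymocytes assemble their antigen receptor genes while still immature, and then shut down the genes used for it. The 8 genes described here, Rag1, Rag2, Dntt, Ptcra, Cd8a, Cd8b1, Cd24a and Mns1, were chosen by symbol as genes of immature thymocytes and of receptor gene recombination. They are 8 of the 21154 mouse genes that the arrays could name, and 11 of the 55681 probes measured them. The choice was made with earlier results of these data known, so counts and medians beside those of all genes cannot be read as support. All 8 were well above background on both arrays of at least 1 population, the requirement for testing. Rag2 met it only in Foxp3-KO preTreg and WT Tconv, the populations where it was brightest.

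RAG1 and RAG2 form the recombinase that cuts receptor genes at their V, D and J segments, and TdT, encoded by Dntt, adds nucleotides at the joints before end-joining proteins seal them. Ptcra encodes the pre-T cell receptor alpha chain, which pairs with a new beta chain and drives thymocytes to the double-positive stage, where CD4 and the CD8 dimer encoded by Cd8a and Cd8b1 are both on the surface. Positive selection ends recombination, and maturing CD4 single-positive cells silence the CD8 genes and lower CD24, a glycoprotein of immature thymocytes encoded by Cd24a. Mns1 encodes a filament-like protein known in mouse from sperm flagella and motile cilia.

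RNA came from freshly sorted thymocytes, lysed without culture, and each population was hybridised as 2 biological replicates. Nr4a-TKO preTreg cells were CD4 single-positive with high CD25, GITR and Nr4a3, and carried the Nr4a-TKO genotype. Foxp3-KO preTreg cells were CD4 single-positive and CD25-high, positive for a Foxp3 reporter, and carried the Foxp3-KO genotype. WT Treg cells were wild-type CD4 single-positive Foxp3+ cells, and WT Tconv cells were wild-type CD4 single-positive CD25-low cells. The labels state no strain, age, driver of a deletion or deleted gene segment. Neither knockout has a wild-type precursor sorted by its own gate, so genotype and gate cannot be told apart in any comparison with a knockout. P-values measure differences against the spread between the 2 replicates of a population, pooled over all populations and drawn towards that of other genes. Arrays outside a comparison therefore also set its p-value.

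Values are log2 Cy3 signal relative to the 75th percentile of the array, so 0 is a probe as bright as that percentile. Levels are comparable for 1 gene across arrays, not between genes. The 8 arrays lay on 1 slide, with Nr4a-TKO preTreg and WT Tconv in 1 row and Foxp3-KO preTreg and WT Treg in the other. Row and population therefore cannot be told apart, except that Nr4a-TKO preTreg against WT Tconv, and Foxp3-KO preTreg against WT Treg, were compared within a row. Between 47.7% and 52.1% of probes were above background on each array, and replicates correlated at 0.976 in Foxp3-KO preTreg, 0.99 in Nr4a-TKO preTreg and in WT Treg, and 0.997 in WT Tconv. The T cell label held on every array: Cd3e read 6.91 to 7.24 and Cd4 5.0 to 5.64. The probe for Foxp3 averaged 3.52 in Nr4a-TKO preTreg, 1.86 in Foxp3-KO preTreg, 4.86 in WT Treg and -3.59 in WT Tconv. Nr4a2 averaged 3.80 in Nr4a-TKO preTreg, 1.56 in Foxp3-KO preTreg, 1.70 in WT Treg and -1.54 in WT Tconv. Nr4a1 averaged 6.84 to 7.85 and Nr4a3 -1.55 to 0.32 over the 4 populations. Without the deleted segments these probes check neither genotype.

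Of the 8 genes, 6 have a promoter in the RefSeq table of build GRCm38.p6. The 250 bases before the start of Rag1, Rag2, Dntt and Ptcra are shown, on the strand of the gene, because these 4 recombination and pre-T cell receptor genes were all called lower in Nr4a-TKO preTreg than in Foxp3-KO preTreg. Capitals mark short letter motifs: CAGCTG and CAGGTG of E proteins, TGTGGT of Runx factors and AGATAA of GATA factors, each searched on both strands. Rag1 (chr2:101649533-101649782, minus strand) and Rag2 (chr2:101624462-101624711, plus strand) are direct neighbours, with 0 annotated genes between them, as are Cd8a and Cd8b1. Dntt lies at chr19:41029025-41029274 (plus strand) and Ptcra at chr17:46763713-46763962 (minus strand).
Rag1: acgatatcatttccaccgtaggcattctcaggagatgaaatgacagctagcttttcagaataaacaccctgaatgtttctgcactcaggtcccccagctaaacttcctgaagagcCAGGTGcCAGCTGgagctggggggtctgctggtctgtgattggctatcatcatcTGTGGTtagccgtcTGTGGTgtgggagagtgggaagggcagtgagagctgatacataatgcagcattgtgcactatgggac
Rag2: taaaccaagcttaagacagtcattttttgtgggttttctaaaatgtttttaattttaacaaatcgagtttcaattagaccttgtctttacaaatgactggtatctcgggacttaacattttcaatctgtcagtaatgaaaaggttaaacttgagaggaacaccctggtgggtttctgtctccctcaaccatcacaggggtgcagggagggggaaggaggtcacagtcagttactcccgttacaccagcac
Dntt: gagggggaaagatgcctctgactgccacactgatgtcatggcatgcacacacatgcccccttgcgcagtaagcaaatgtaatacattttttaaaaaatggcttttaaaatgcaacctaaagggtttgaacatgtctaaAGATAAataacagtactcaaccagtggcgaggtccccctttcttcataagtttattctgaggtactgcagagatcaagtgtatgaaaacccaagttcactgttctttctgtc
Ptcra: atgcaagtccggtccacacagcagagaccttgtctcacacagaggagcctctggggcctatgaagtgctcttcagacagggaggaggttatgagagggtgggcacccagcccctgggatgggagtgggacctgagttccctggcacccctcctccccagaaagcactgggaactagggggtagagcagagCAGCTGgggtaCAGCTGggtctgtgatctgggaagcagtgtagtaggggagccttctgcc

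Rag1 held 1 CAGCTG, 1 CAGGTG and 2 TGTGGT, Ptcra held 2 CAGCTG, Dntt held 1 AGATAA, and Rag2 held none of these. Among all 32851 promoters of this length, CAGCTG was found in 13.0%, CAGGTG in 17.2%, TGTGGT in 14.0% and AGATAA in 9.99%, so matches of this kind are common. AAAGGTCA, the letters of a site for an Nr4a monomer, was found in 1.34% of promoters and GTAAACA, of forkhead factors, in 3.17%, and none of the 6 promoters, those of Cd8a and Mns1 included, held either. A match describes the letters only.

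**Figure D1:**
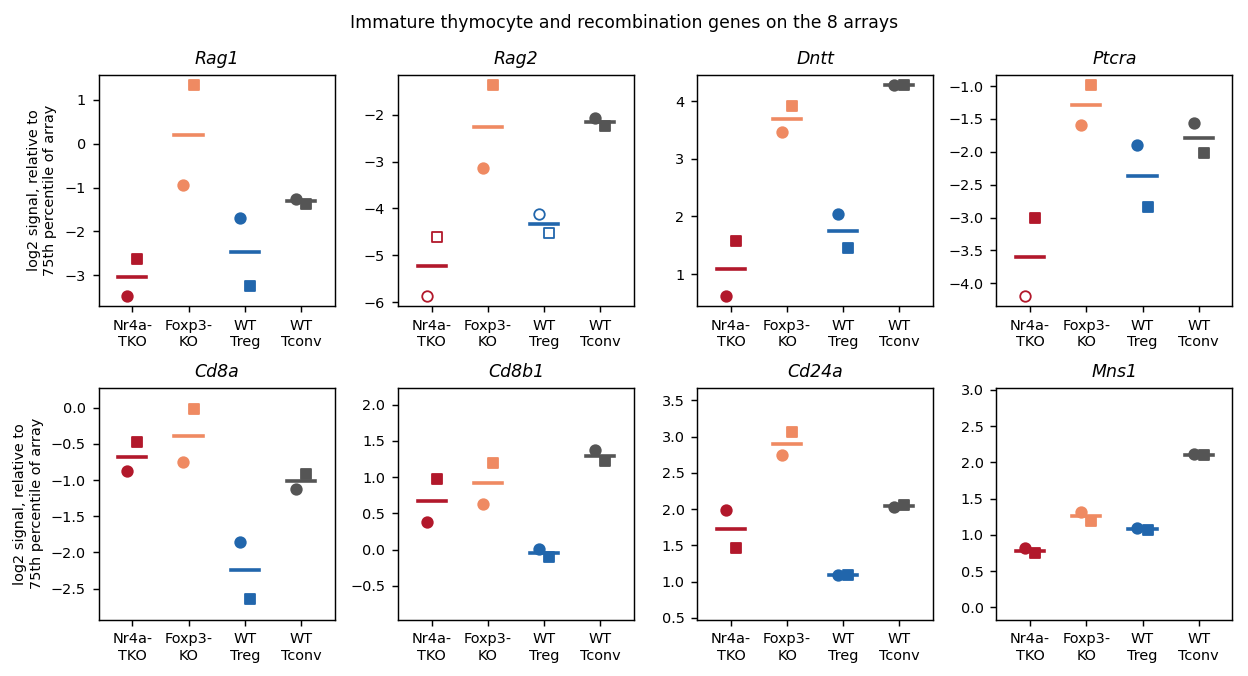
Log2 signal relative to the 75th percentile of the array (y axis) of the 8 genes on the 8 arrays, by population (x axis). Circles are replicate 1, squares replicate 2, open symbols were not well above background, and lines are means of 2. Rag1, Dntt and Ptcra have their lowest means in Nr4a-TKO preTreg and Rag2 is at background there and in WT Treg, whereas Cd8a, Cd8b1 and Cd24a have theirs in WT Treg.

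Both recombinase genes were lower in Nr4a-TKO preTreg than in Foxp3-KO preTreg. Rag1 read -3.47 and -2.62 in Nr4a-TKO preTreg, -0.94 and 1.34 in Foxp3-KO preTreg, -1.70 and -3.25 in WT Treg, and -1.27 and -1.37 in WT Tconv. Both Foxp3-KO arrays were higher than all 6 others, both Nr4a-TKO arrays were below WT Tconv, and the Nr4a-TKO and WT Treg arrays overlapped. Each array held RNA of many sorted cells, so fewer cells of a type and less RNA per cell cannot be told apart. Rag1 was 9.51-fold lower in Nr4a-TKO preTreg than in Foxp3-KO preTreg (log2 difference -3.25 ± 0.87 SE, limma adjusted p = 0.0374). It missed the threshold in the other 5 comparisons, including Foxp3-KO preTreg against WT Treg (2.68 ± 0.87, adjusted p = 0.133) and Nr4a-TKO preTreg against WT Tconv (-1.73 ± 0.87, adjusted p = 0.149). The replicates set this precision, since the Foxp3-KO arrays lay 2.28 log2 units apart and the WT Treg arrays 1.55. With only Nr4a-TKO preTreg and WT Tconv fitted, their difference passed in limma (adjusted p = 0.021). Without Foxp3-KO replicate 2, the highest array, the difference between the knockouts was -2.11 (adjusted p = 0.100), and it also missed the threshold without either Nr4a-TKO array or either WT Tconv array (adjusted p of 0.0742 to 0.154), and with replicate number in the fit (0.0567). Against WT Treg, Foxp3-KO preTreg passed without Foxp3-KO replicate 1 (3.82, adjusted p = 0.0435). A further Rag1 probe was above background on 1 array, Foxp3-KO replicate 2, which was also the array where the main Rag1 probe was highest.

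Rag2 read -5.86 and -4.60 in Nr4a-TKO preTreg, -3.14 and -1.37 in Foxp3-KO preTreg, -4.13 and -4.53 in WT Treg, and -2.06 and -2.24 in WT Tconv. It was not well above background on any Nr4a-TKO or WT Treg array and was above it on both arrays of the other populations. Only those other populations let it be tested, so its lower calls against them cannot be read as support. Its folds are bounds set at the dimmest probe above background on each array, or at its own reading where higher. They are not the detection limit of this probe, and each adjusted p is that of the fitted difference. Rag2 was at least 4.93-fold lower in Nr4a-TKO preTreg than in WT Tconv (adjusted p = 0.0144) and at least 4.59-fold lower than in Foxp3-KO preTreg (adjusted p = 0.0228). In WT Treg it was at least 3.79-fold below WT Tconv, with an adjusted p of 0.0523 that misses the threshold. This comparison passed in limma with median scaling (adjusted p = 0.0366), an intensity trend (0.0336) or array weights (0.00766). It also passed with only these 2 populations fitted (0.00481). The WT Tconv arrays lay between the Foxp3-KO arrays, and the difference between Foxp3-KO preTreg and WT Tconv was -0.10 ± 0.67 (adjusted p = 0.92). Its sign turned without Foxp3-KO replicate 1 (0.78), with another background correction (0.038) and with the mean of the probes (0.23). The call against WT Tconv was lost without Nr4a-TKO replicate 1 or either WT Tconv array (adjusted p of 0.064 to 0.0746), and the call against Foxp3-KO preTreg without Nr4a-TKO replicate 1, Foxp3-KO replicate 2 or either WT Tconv array (0.0515 to 0.101). The other Rag2 probe was at background on all 8 arrays.

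Dntt, for the enzyme that diversifies the joints, was highest in WT Tconv and had its lowest mean in Nr4a-TKO preTreg. It read 0.62 and 1.57 in Nr4a-TKO preTreg, 3.47 and 3.91 in Foxp3-KO preTreg, 2.04 and 1.45 in WT Treg, and 4.28 and 4.28 in WT Tconv. WT Tconv was highest, Foxp3-KO preTreg followed, and the Nr4a-TKO and WT Treg arrays overlapped below both. Dntt was 9.05-fold lower in Nr4a-TKO preTreg (-3.18 ± 0.36, adjusted p = 0.00219) and 5.76-fold lower in WT Treg (-2.53 ± 0.36, adjusted p = 0.00577) than in WT Tconv. Both calls held in all 20 alternative settings, some of which reuse nearly the same values. It was 6.03-fold lower in Nr4a-TKO preTreg than in Foxp3-KO preTreg (-2.59 ± 0.36, adjusted p = 0.00663). Foxp3-KO preTreg exceeded WT Treg 3.83-fold (1.94 ± 0.36, adjusted p = 0.0408), a call that was lost without any one of the 4 arrays compared or of the WT Tconv arrays (adjusted p of 0.0563 to 0.18). With replicate number in the fit its adjusted p was 0.0667. Foxp3-KO preTreg and WT Tconv differed by -0.59 ± 0.36 (adjusted p = 0.271), and Nr4a-TKO preTreg and WT Treg by -0.65 ± 0.36 (adjusted p = 0.21).

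Ptcra, for the pre-T cell receptor chain, read -4.19 and -3.01 in Nr4a-TKO preTreg, -1.59 and -0.99 in Foxp3-KO preTreg, -1.90 and -2.84 in WT Treg, and -1.56 and -2.02 in WT Tconv. Nr4a-TKO preTreg was below all other arrays, and its replicate 1 was not above background. WT Tconv overlapped with Foxp3-KO preTreg and with WT Treg. Ptcra was 3.52-fold lower in Nr4a-TKO preTreg than in WT Tconv (-1.81 ± 0.51, adjusted p = 0.0323) and 4.97-fold lower than in Foxp3-KO preTreg (-2.31 ± 0.51, adjusted p = 0.022). Without Nr4a-TKO replicate 1, the dimmest array, these differences were -1.23 (adjusted p = 0.129) and -1.72 (adjusted p = 0.0854). The call against WT Tconv was also lost without either WT Tconv array (adjusted p of 0.0848 and 0.145) and with replicate number in the fit (0.053), and that against Foxp3-KO preTreg without Foxp3-KO replicate 2 (0.087). The remaining 4 comparisons of Ptcra did not pass, with adjusted p of 0.112 to 0.492.

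The CD8 genes were ordered differently: WT Treg, not Nr4a-TKO preTreg, was lowest. Cd8a read -0.87 and -0.48 in Nr4a-TKO preTreg, -0.76 and -0.019 in Foxp3-KO preTreg, -1.85 and -2.64 in WT Treg, and -1.12 and -0.92 in WT Tconv. Both knockout populations overlapped each other and lay above WT Tconv, and WT Treg lay below all other arrays. Cd8a was 2.96-fold higher in Nr4a-TKO preTreg than in WT Treg (1.57 ± 0.35, adjusted p = 0.0227), 3.62-fold higher in Foxp3-KO preTreg than in WT Treg (1.85 ± 0.35, adjusted p = 0.043) and 2.34-fold lower in WT Treg than in WT Tconv (-1.22 ± 0.35, adjusted p = 0.0449). The dimmer Cd8a probe gave differences of the same sign, 1.07, 1.47 and -1.04, with adjusted p of 0.114, 0.119 and 0.126. Without WT Treg replicate 2, the lowest array, they were 1.17 (adjusted p = 0.0933), 1.46 (0.161) and -0.83 (0.17). The first call was also lost without either Nr4a-TKO array (0.0652 and 0.0945). The second was lost without each array except Foxp3-KO replicate 1, and with replicate number in the fit (0.0721). The third was lost without either WT Tconv array or either Nr4a-TKO array (0.0666 to 0.179) and with replicate number in the fit (0.0672).

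Cd8b1 read 0.37 and 0.97 in Nr4a-TKO preTreg, 0.63 and 1.20 in Foxp3-KO preTreg, 0.0087 and -0.10 in WT Treg, and 1.37 and 1.22 in WT Tconv. WT Tconv was highest and WT Treg lowest, with the overlapping knockout arrays between them. Cd8b1 was 2.54-fold lower in WT Treg than in WT Tconv (-1.34 ± 0.26, adjusted p = 0.0139). Leaving out any one of these 4 arrays gave -1.27 to -1.41, with adjusted p of 0.0579 to 0.0832. Its other comparisons did not pass, with -0.62 ± 0.26 for Nr4a-TKO preTreg against WT Tconv (adjusted p = 0.0981) and 0.96 ± 0.26 for Foxp3-KO preTreg against WT Treg (adjusted p = 0.0959). Between the knockouts, Cd8a differed by -0.29 ± 0.35 and Cd8b1 by -0.24 ± 0.26 (adjusted p of 0.556 and 0.501). Both signs turned without Foxp3-KO replicate 2 (0.080 and 0.043), and that of Cd8b1 also without Nr4a-TKO replicate 1 (0.057).

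Cd24a, highest in Foxp3-KO preTreg, passed the test there against each of the other 3 populations. It read 1.99 and 1.46 in Nr4a-TKO preTreg, 2.75 and 3.06 in Foxp3-KO preTreg, 1.09 and 1.09 in WT Treg, and 2.02 and 2.06 in WT Tconv. The 4 populations did not overlap, with Foxp3-KO preTreg on top, then WT Tconv, Nr4a-TKO preTreg and WT Treg. Cd24a was 1.82-fold higher in Foxp3-KO preTreg than in WT Tconv (0.865 ± 0.19, adjusted p = 0.0295) and 3.51-fold higher than in WT Treg (1.81 ± 0.19, adjusted p = 0.0108). It was 2.27-fold lower in Nr4a-TKO preTreg than in Foxp3-KO preTreg (-1.18 ± 0.19, adjusted p = 0.00985) and 1.93-fold lower in WT Treg than in WT Tconv (-0.95 ± 0.19, adjusted p = 0.0161). Nr4a-TKO preTreg differed from WT Treg by 0.63 ± 0.19 (adjusted p = 0.0522) and from WT Tconv by -0.32 ± 0.19 (adjusted p = 0.219). Between the knockouts the call held without any array. Foxp3-KO preTreg against WT Tconv missed the threshold without Foxp3-KO replicate 2 or any wild-type array (adjusted p of 0.0576 to 0.144) and under median scaling (0.71, adjusted p = 0.0536). Against WT Treg it was lost without either WT Treg array (0.0534 and 0.0696), and WT Treg against WT Tconv without any one of its 4 arrays (0.0707 to 0.0862). Nr4a-TKO preTreg passed against WT Treg without its own replicate 2 or either Foxp3-KO array (0.023 to 0.0486), and against WT Tconv without its own replicate 1 (-0.58, adjusted p = 0.0479).

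Mns1 was highest in WT Tconv, and its replicates lay at most 1.095-fold apart in every population. It read 0.82 and 0.75 in Nr4a-TKO preTreg, 1.32 and 1.19 in Foxp3-KO preTreg, 1.09 and 1.07 in WT Treg, and 2.11 and 2.10 in WT Tconv. No populations overlapped, in the order WT Tconv, Foxp3-KO preTreg, WT Treg and Nr4a-TKO preTreg, although Foxp3-KO preTreg and WT Treg did not differ past the threshold (0.18 ± 0.075, adjusted p = 0.221). Against WT Tconv, Mns1 was 2.51-fold lower in Nr4a-TKO preTreg (-1.33 ± 0.075, adjusted p = 0.000394), 1.81-fold lower in Foxp3-KO preTreg (-0.85 ± 0.075, adjusted p = 0.00271) and 2.04-fold lower in WT Treg (-1.03 ± 0.075, adjusted p = 0.000779). These 3 calls held in all 20 alternative settings, some of which reuse nearly the same values. Nr4a-TKO preTreg was 1.39-fold below Foxp3-KO preTreg (-0.47 ± 0.075, adjusted p = 0.00926). It was 1.23-fold below WT Treg (-0.30 ± 0.075, adjusted p = 0.031), which was lost without any one of the 6 Nr4a-TKO and wild-type arrays (adjusted p of 0.0755 to 0.119) and under median scaling (-0.23, adjusted p = 0.101). None of 8 genes of testis or cilia measured beside it was above background on more than 1 array, Sycp3 of the meiotic chromosome axis on none.

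**Figure D2:**
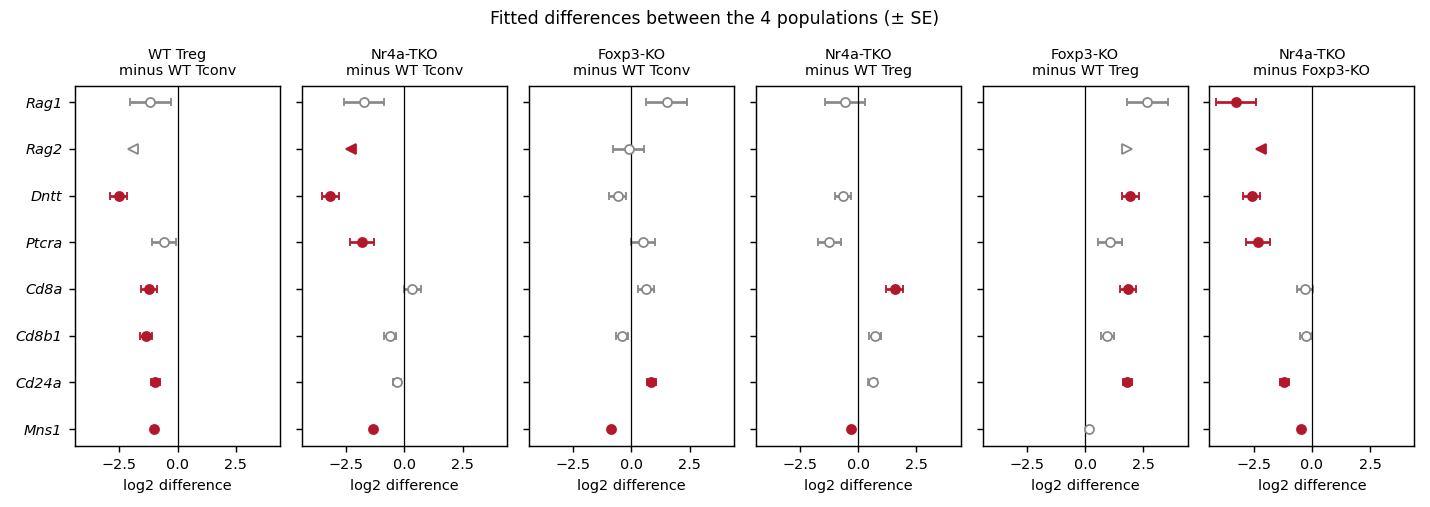
Log2 differences (x axis) of the 8 genes (y axis) in the 6 comparisons, each named above its panel. Points are limma estimates with SE, filled where adjusted p is under 0.05; for Rag2, triangles are lower bounds and no point is drawn where both populations were at background. Between the knockouts 6 genes lie past the threshold, all lower in Nr4a-TKO preTreg.

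In Nr4a-TKO preTreg against Foxp3-KO preTreg, 6 of the 8 genes were lower and none higher: Rag1, Rag2, Dntt, Ptcra, Cd24a and Mns1. Rag2 was tested only because it was above background in Foxp3-KO preTreg and WT Tconv, so its call cannot be read as support. Of all 13498 genes tested, 33.8% were called in this comparison, 15.7% lower and 18% higher. The member median was -1.69 with Rag2 at its bound and -1.75 as fitted, beside 0.018 over all genes. Cd8a and Cd8b1 did not pass. The members were chosen with earlier results of these data known, so neither this count nor this median is independent support. The Foxp3-KO replicate correlation was the lowest of the 4 populations, and without Foxp3-KO replicate 2 the calls of Rag1, Rag2 and Ptcra were lost, which left 3 members called. Without Nr4a-TKO replicate 1 there were also 3. With these 2 populations fitted alone, limma called 0 members (6 at an unadjusted p under 0.05), with adjusted p of 0.052 to 0.108 for the 6 genes.

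In Nr4a-TKO preTreg against WT Tconv, 4 of the 8 genes were lower, Rag2, Dntt, Ptcra and Mns1, and none higher, against 48.2% of all genes called, 26.8% lower and 21.4% higher. The call of Rag2 cannot be read as support here either, since WT Tconv is a population that let it be tested. The member median was -1.53 and that of all genes -0.096. In WT Treg against WT Tconv, 5 were lower and none higher, Dntt, Cd8a, Cd8b1, Cd24a and Mns1, against 35.4% called, 21.5% lower and 13.8% higher, with medians of -1.19 and -0.086. For Nr4a-TKO preTreg the share of members called was close to that of all genes. In Foxp3-KO preTreg against WT Tconv, Cd24a was higher and Mns1 lower, 2 of 8 beside 24.6% of all genes (10.4% higher and 14.3% lower), and the medians were 0.20 and -0.099. These 3 comparisons share the WT Tconv arrays.

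Against WT Treg, 3 of the 8 genes were higher in Foxp3-KO preTreg, Dntt, Cd8a and Cd24a, and none was lower. This comparison had the fewest calls, 6.41% of all genes, 3.48% higher and 2.93% lower. The member median was 1.82 with Rag2 at its bound and 1.83 as fitted, beside 0.0038 over all genes. Of the 3 calls only that of Cd24a remained without filtering dim probes, with array weights or with replicate number in the fit, and none remained when only these 4 arrays were fitted. In Nr4a-TKO preTreg against WT Treg, Cd8a was higher and Mns1 lower, 2 of 8 beside 35.4% of all genes (19.4% higher and 15.9% lower). The median over the 7 members above background in at least 1 of these populations was -0.30, beside 0.0086 over all genes. Scaling by the median of the array in place of its 75th percentile moved the median of all genes to -0.17, -0.25 and -0.23 for Nr4a-TKO preTreg, Foxp3-KO preTreg and WT Treg against WT Tconv, and turned no member's sign.

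**Figure D3:**
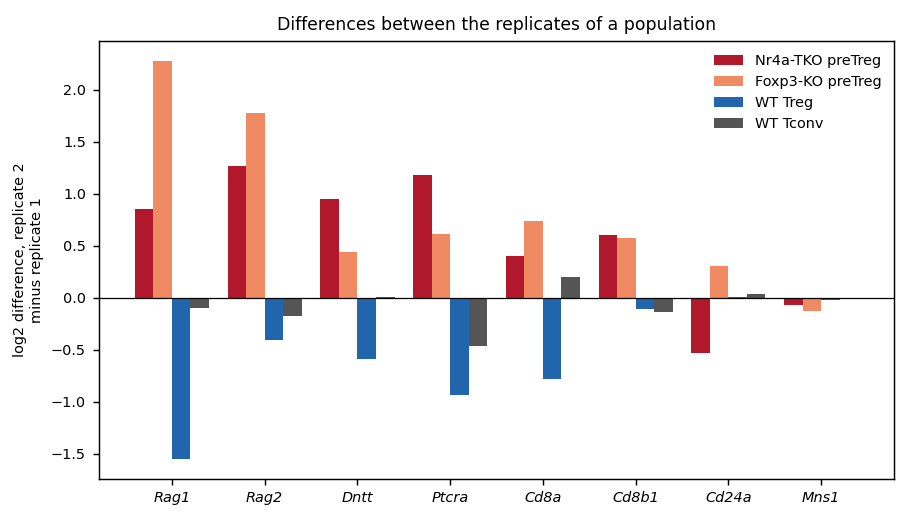
Difference between replicate 2 and replicate 1 of a population (y axis, log2 units) for each of the 8 genes (x axis), bars coloured by population. The Foxp3-KO preTreg bars are the tallest for Rag1 and Rag2, at 2.28 and 1.77, and the longest WT Tconv bar is that of Ptcra at -0.46.

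Most members differed in 1 direction between the replicates of a population. In Foxp3-KO preTreg 7 of 8 read higher in replicate 2, by up to 4.85-fold for Rag1, Mns1 being the exception. In Nr4a-TKO preTreg 6 of 8 were higher in replicate 2, all but Cd24a and Mns1, with Rag2, Ptcra and Dntt apart by 1.26, 1.18 and 0.94 log2 units. In WT Treg 7 of 8 were higher in replicate 1, and in WT Tconv 5 of 8. Of 13 other genes of the double-positive stage, 13 were also higher in replicate 2 of Foxp3-KO preTreg. The share over all genes was not counted, so these directions are not shown to be particular to the members.

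**Figure D4:**
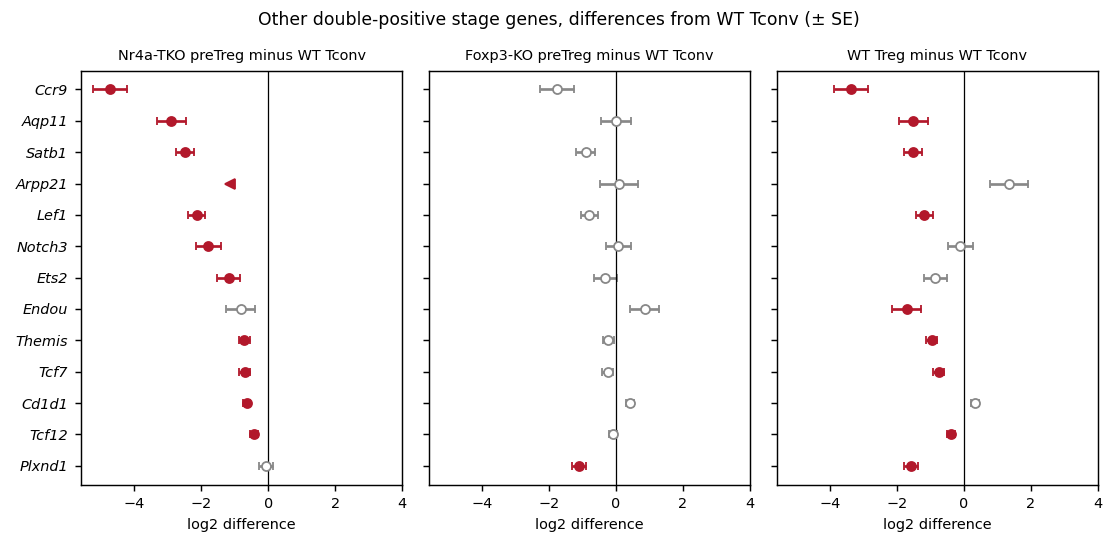
Log2 differences from WT Tconv (x axis, ± SE, filled where adjusted p is under 0.05) of 13 other genes of the double-positive stage (y axis), in 3 panels by population. The Arpp21 triangle is a lower bound. In Nr4a-TKO preTreg 11 genes are lower; in Foxp3-KO preTreg Plxnd1 alone is lower.

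Most of the 13 other genes of the double-positive stage reported here were lower in Nr4a-TKO preTreg and WT Treg than in WT Tconv. This list and those below were chosen with earlier results of these data known, so their counts beside all genes cannot be read as support. Against WT Tconv, 11 of 13 were lower in Nr4a-TKO preTreg (median -1.19 as fitted and -1.14 with Arpp21 at its bound), 1 was lower in Foxp3-KO preTreg (-0.23) and 9 were lower in WT Treg (-0.96). Of all genes, 26.8%, 14.3% and 21.5% were lower in these comparisons. Between the knockouts 15.7% of all genes were lower in Nr4a-TKO preTreg, and 15.9% were lower there than in WT Treg. Ccr9, the thymic chemokine receptor gene, was lower by -4.74 ± 0.51 in Nr4a-TKO preTreg (adjusted p = 0.00184) and by -3.36 ± 0.51 in WT Treg (adjusted p = 0.00671). Satb1, for a chromatin organiser, was lower by -2.49 and -1.52 in the same populations (adjusted p of 0.00209 and 0.0118). Between the knockouts 8 of 13 were lower in Nr4a-TKO preTreg, among them Cd1d1, for an antigen-presenting molecule of lipids, at -1.06 ± 0.12 (adjusted p = 0.00341), and Aqp11 at -2.89 ± 0.44 (adjusted p = 0.00814). The 1 higher gene was Plxnd1, at 1.03 ± 0.20 (limma adjusted p = 0.0166). Against WT Treg, Endou was higher in Foxp3-KO preTreg (2.56 ± 0.44, adjusted p = 0.0335). In Nr4a-TKO preTreg against WT Treg 5 were lower, among them Arpp21, at least 5.6-fold lower (adjusted p = 0.00789). The 1 higher gene there was again Plxnd1, at 1.51 ± 0.20 (limma adjusted p = 0.0053). Counts of lower genes fell without 1 array: in Nr4a-TKO preTreg against WT Tconv to 6 without Nr4a-TKO replicate 1 and to 4 or 5 without a WT Tconv array, in WT Treg against WT Tconv to 2 to 4 without an array compared, and between the knockouts to 4 without Nr4a-TKO replicate 1 or Foxp3-KO replicate 2. In Foxp3-KO preTreg against WT Tconv the count was 0 to 4 without 1 array, highest without Foxp3-KO replicate 2, and 4 under median scaling.

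Recombination also needs proteins that bend, sense and join DNA, which cells of all kinds make. Of 18 such genes, 2 were higher and 5 lower in Nr4a-TKO preTreg, 3 lower in Foxp3-KO preTreg, and 1 higher and 7 lower in WT Treg, each against WT Tconv. The medians were -0.12, -0.18 and -0.36, and of all genes 26.8%, 14.3% and 21.5% were lower in the same comparisons. Without 1 array, 2 to 6, 0 to 3 and 3 to 9 were lower, and under median scaling 7, 7 and 11. In Nr4a-TKO preTreg the largest was Lig4, the ligase that seals the joint, at -1.02 ± 0.18 (adjusted p = 0.00826), with Atm, the break-sensing kinase, at -0.97 ± 0.10 (adjusted p = 0.00169). In WT Treg the lower genes included H2ax at -1.08 ± 0.092 (adjusted p = 0.00124) and the DNA-bending Hmgb1 and Hmgb2 at -0.78 and -0.81 (adjusted p of 0.00279 and 0.00304). Polm, a polymerase of the joint, was higher in Nr4a-TKO preTreg and in WT Treg by 0.52 and 0.71 (adjusted p of 0.00826 and 0.00467). H2ax, Hmgb1 and Hmgb2 were higher than in WT Treg by 0.96, 0.64 and 1.05 in Nr4a-TKO preTreg and by 0.88, 0.60 and 0.62 in Foxp3-KO preTreg (adjusted p of 0.0244 or less). Of all genes, 21.4% were higher in Nr4a-TKO preTreg than in WT Tconv. Higher than in WT Treg were 19.4% in Nr4a-TKO preTreg and 3.48% in Foxp3-KO preTreg. Proliferation genes moved beside H2ax, Hmgb1 and Hmgb2. Of 10, 3 were higher in Nr4a-TKO preTreg, 3 lower in Foxp3-KO preTreg and 9 lower in WT Treg than in WT Tconv. Against WT Treg, 9 and 8 of them were higher in Nr4a-TKO preTreg and in Foxp3-KO preTreg, Rrm2 by 1.89 and 1.28. Against WT Tconv, the count was 0 to 3 higher in Nr4a-TKO preTreg and 0 to 4 lower in Foxp3-KO preTreg without 1 array, and under median scaling the calls in Nr4a-TKO preTreg were lost and 7 were lower in Foxp3-KO preTreg. Against WT Treg it was 4 to 8 higher in Foxp3-KO preTreg without 1 array.

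Factors that control Rag or pre-T cell receptor genes changed in both directions. Against WT Tconv, 2 of 14 were higher and 8 lower in Nr4a-TKO preTreg, 2 and 3 in Foxp3-KO preTreg, and 2 and 5 in WT Treg, beside 48.2%, 24.6% and 35.4% of all genes called in either direction. Without 1 array, 7 to 8, 1 to 5 and 2 to 5 were lower, and under median scaling 5 were lower in Foxp3-KO preTreg. Ikzf1, for Ikaros, was lower in all 3 (-1.10, -0.68 and -1.35, adjusted p of 0.00209, 0.0176 and 0.0015), and Myb higher in all 3 (1.67, 1.95 and 1.54, adjusted p of 0.000459, 0.000541 and 0.000618). Between the knockouts 7 were lower in Nr4a-TKO preTreg, among them Foxo1, a regulator of Rag genes in lymphocytes, at -0.92 ± 0.11 (adjusted p = 0.004), Foxp1 at -0.93 ± 0.11 (adjusted p = 0.00432) and Bach2 at -1.41 ± 0.19 (adjusted p = 0.00623), and 3 were higher. Of all genes, 15.7% were lower and 18% higher in that comparison. Id2, an inhibitor of E proteins, read 5.99 and 5.99 in Nr4a-TKO preTreg, 4.33 and 2.74 in Foxp3-KO preTreg, 2.35 and 2.52 in WT Treg, and 4.92 and 4.95 in WT Tconv. Id3, which acts in the same way and was singled out after its values were seen, read 2.27 and 2.99 in Nr4a-TKO preTreg, 4.07 and 4.11 in Foxp3-KO preTreg, 4.22 and 4.03 in WT Treg, and 4.05 and 4.10 in WT Tconv. Id2 was highest and Id3 lowest in Nr4a-TKO preTreg. Satb1 and Tcf12 are in this list and in that of the double-positive stage.

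The CD8 genes can be set beside the programmes of the CD8 and CD4 lineages. For the counts against WT Tconv in this paragraph, the shares of all genes serve as background. In Nr4a-TKO preTreg, Foxp3-KO preTreg and WT Treg, 26.8%, 14.3% and 21.5% of all genes were lower and 21.4%, 10.4% and 13.8% higher. Of 7 CD8 lineage genes on the array, 2 were higher in Nr4a-TKO preTreg than in WT Tconv, Nkg7 (2.56 ± 0.69, adjusted p = 0.0287) and Ccl5 (3.68 ± 1.20, adjusted p = 0.0496), 0 passed in limma in Foxp3-KO preTreg (3 at an unadjusted p under 0.05), and Runx3, the factor that silences Cd4, was lower in WT Treg (-1.26 ± 0.21, adjusted p = 0.00843). Without 1 array, 0 to 6 passed as higher in Nr4a-TKO preTreg and 0 to 5 in Foxp3-KO preTreg. Ccl5 read 6.46 and 2.47 in Foxp3-KO preTreg. Zbtb7b, which encodes ThPOK, the factor that silences CD8 genes, was lower than in WT Tconv by -1.23 in Nr4a-TKO preTreg, -0.98 in Foxp3-KO preTreg and -0.96 in WT Treg (adjusted p of 0.00334, 0.0148 and 0.00962). Of 8 T cell receptor complex genes, 5 were lower and 1 higher in Nr4a-TKO preTreg than in WT Tconv. In Foxp3-KO preTreg 2 were lower, and in WT Treg 7. Without 1 array, 2 to 5, 0 to 4 and 1 to 7 were lower, and under median scaling 7, 7 and 8. In all, 4 of 5 CD4 lineage genes were lower in Nr4a-TKO preTreg, 2 in Foxp3-KO preTreg and 3 in WT Treg. In Foxp3-KO preTreg 0 to 3 were lower without 1 array and 4 under median scaling. Among 13 genes of maturation and thymic exit, S1pr1, the receptor that guides exit, was lower in Nr4a-TKO preTreg (-0.78 ± 0.064, adjusted p = 0.000942) and higher in Foxp3-KO preTreg and WT Treg (0.96 and 1.28, adjusted p of 0.00115 and 0.000285) than in WT Tconv. Of the 13, 7 were lower and 3 higher in Nr4a-TKO preTreg, 1 lower and 5 higher in Foxp3-KO preTreg, and 3 lower and 6 higher in WT Treg. Median scaling gave 5 lower and 3 higher in Foxp3-KO preTreg. Without 1 array, 3 to 8 were lower in Nr4a-TKO preTreg, 1 to 5 higher in Foxp3-KO preTreg and 3 to 7 higher in WT Treg. Of 8 early thymocyte genes tested, 5 were higher and 1 lower in Nr4a-TKO preTreg and 4 higher in Foxp3-KO preTreg. In WT Treg 3 were higher and 2 lower. The 5 include Mef2c, which was tested only because it was above background in the knockout populations, so its call cannot be read as support. Without 1 array, 3 to 6, 1 to 3 and 1 to 3 were higher. Kit, the receptor of early progenitors, rose by 2.42, 5.47 and 4.87 (adjusted p of 0.00147, 0.000405 and 0.000281).

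**Figure D5:**
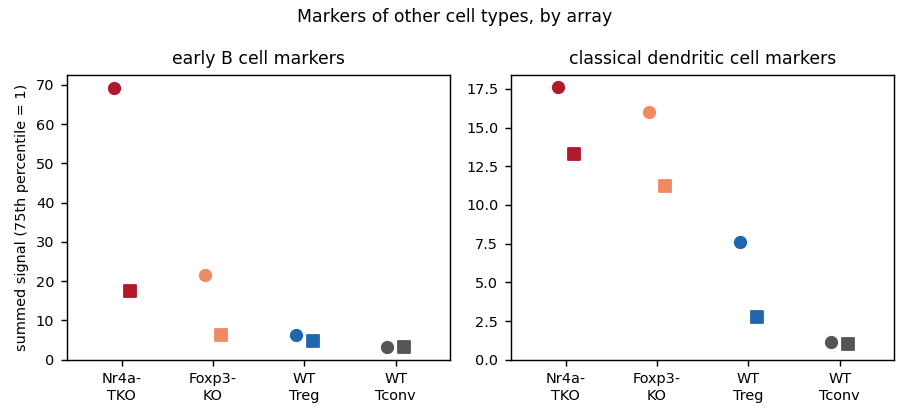
Summed linear signal (y axis, 75th percentile of the array = 1) of 10 early B cell markers (left) and 8 classical dendritic cell markers (right), by population and array. Circles are replicate 1 and squares replicate 2. Nr4a-TKO replicate 1 is highest in both panels, at 69.3 and 17.6.

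B cell precursors are known to express Rag1, Rag2 and Dntt, so markers of other cells were measured beside them. Of 10 early B cell markers 8 were tested, Ebf1 and Cd79a only because both Nr4a-TKO arrays were above background, so their calls are not counted here. The summed signal of the list was 69.3 and 17.5 in Nr4a-TKO preTreg, 21.6 and 6.38 in Foxp3-KO preTreg, 6.36 and 4.87 in WT Treg, and 3.32 and 3.16 in WT Tconv. Cd79b, Blnk and Ms4a1, at log2 readings of 4.83, 4.14 and 3.75, made up most of the sum on Nr4a-TKO replicate 1. Vpreb1 went the other way. It read -0.76 and -0.46 in Nr4a-TKO preTreg, -0.094 and 0.68 in Foxp3-KO preTreg, -0.42 and 0.091 in WT Treg, and 0.89 and 0.86 in WT Tconv. Igll1, for a chain of the pre-B cell receptor, was above background on no array and Pax5 on 1. Classical dendritic cell markers summed to 17.6 and 13.3 in Nr4a-TKO preTreg, 16.0 and 11.2 in Foxp3-KO preTreg, 7.58 and 2.73 in WT Treg, and 1.15 and 1.01 in WT Tconv. Xcr1 was at background on every array. Plasmacytoid markers summed to 381 and 379 in Nr4a-TKO preTreg, 417 and 405 in Foxp3-KO preTreg, 387 and 413 in WT Treg, and 464 and 484 in WT Tconv. Siglech, at a log2 reading of 8.35 to 8.61 on all 8 arrays, made up most of this linear sum. The sums therefore mostly follow 1 probe and cannot be read as the amount of plasmacytoid cells. Of these 8 genes, Ccr9 included, 3 were higher and 3 lower in Nr4a-TKO preTreg, 4 higher in Foxp3-KO preTreg, and 1 higher and 3 lower in WT Treg, each against WT Tconv. Of all genes, 48.2%, 24.6% and 35.4% were called in these comparisons, in either direction. Klk1 read -1.83 and -1.91 in Nr4a-TKO preTreg, 0.48 and 0.48 in Foxp3-KO preTreg, -1.86 and -2.24 in WT Treg, and -1.32 and -1.34 in WT Tconv. Between the knockouts 3 of the 8 were lower in Nr4a-TKO preTreg, Cox6a2 (-3.04 ± 0.16, adjusted p = 0.000667), Klk1 and Ccr9, and 1 was higher, Runx2, with a list median of -0.19. Runx2 was above background on 4 arrays, those of Nr4a-TKO preTreg and WT Treg. Of all genes, 15.7% were lower and 18% higher between the knockouts. Ly6d (0.61, adjusted p = 0.113) and Siglech (-0.044, adjusted p = 0.669) did not pass. Of 7 red cell markers 3 were tested and Alas2 was at background on every array. The 7 summed to 0.817 and 0.461 in Nr4a-TKO preTreg, 0.347 and 0.287 in Foxp3-KO preTreg, 0.336 and 0.213 in WT Treg, and 0.191 and 0.204 in WT Tconv. Hbb-bt read -1.15 and -3.17 in Nr4a-TKO preTreg, and -6.24 and -6.37 in WT Tconv. Of 8 epithelial and stromal markers 4 were tested, with Foxn1 and Psmb11 at background on every array. Epcam was lowest in WT Tconv (-4.07 and -3.31), whereas Ccl25 was highest there (1.08 and 1.21). The part of these cells in the results was not tested.

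Over the 8 arrays, Rag1, Rag2, Dntt and Ptcra correlated with each other at r of 0.781 to 0.961, Cd8a with Cd8b1 at 0.749 and Cd8a with Mns1 at 0.026. These points are 2 arrays of each of 4 populations, so r describes the populations. Among all other tested genes, the pattern most like that of Rag1 was that of Nat8f4 (r = 0.988), followed by Kdm6b (0.966). For Rag2 the closest were Arhgap12 (0.989) and Seh1l (0.987), for Dntt Tgfbr3 (0.994) and BC051537 (0.99), and for Ptcra Rfx7 (0.984) and Irak1bp1 (0.974). For Cd8a they were Nagk (0.971) and Marcks (0.958), and for Cd8b1 Smo (0.99) and Calu (0.975). For Cd24a they were Spcs3 (0.991) and Mgarp (0.972), and for Mns1 Kti12 (0.995) and Entpd5 (0.994). No member was the closest gene to another member.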

How the data were processed

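RNA of 8 sorted thymocyte samples, 2 from each of 4 populations, was hybridised in 1 colour to Agilent mouse arrays, with 10 ng of RNA labelled with Cy3 per the labels' protocols. The deposited intensity values are the processed signals written by Feature Extraction 10.7.1.1, background-subtracted by the authors' scanner software per the file headers. The deposited matrix holds scaled intensities, and the labels do not state its scaling. Its log2 values served as an alternative. From the intensities, log2 signal minus the 75th percentile of the array was computed, control spots and outlier spots were left out, and spots of 1 probe were averaged. Probes were named through their RefSeq accession, which gave 28026 of 55681 probes a symbol, and the brightest probe stood for a gene. Genes above background on both arrays of at least 1 population (13498 of 21154) were fitted over all 8 arrays with limma 3.58.1 in R 4.3.3, with Benjamini-Hochberg adjustment within each of 6 comparisons and a threshold of 0.05. The steps were tested on simulated data. A gene dim in 1 population has a fold bound against the dimmest probe above background on each array, or its own reading where higher. The adjusted p beside a bound is that of the fitted difference. Array number limits the precision. Settings varied were background correction, scaling, source of values, filter, probe choice, variance model, groups fitted, replicate block and each array left out. Context genes are named where they have up to 4 of the smallest adjusted p in their list and comparison, defining markers of other cells apart. Some list genes are not reported here and were left out of the list counts. The members and the lists were chosen with earlier results of these data known. Figures were drawn with matplotlib 3.10.9.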

Additional observations from a re-analysis of the deposited data

How the results depend on the processing

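Of 948 values of the 8 genes under alternative settings, 831 kept their direction and side of the threshold, 90 lost a call, 20 gained one and 7 turned sign. The cause was not tested, except that a left-out array or group leaves fewer arrays and fewer probes pass a stricter filter. Of 22 calls, 5 held in all alternatives: Dntt and Mns1 in Nr4a-TKO preTreg and in WT Treg, and Mns1 in Foxp3-KO preTreg, each against WT Tconv. Not all alternatives are independent, since the deposited matrix correlated at 1 with the values used. Dntt and Mns1 have 1 probe each, so settings of probe choice reuse their values. With probes above background on all 8 arrays, 2 genes passed in Nr4a-TKO preTreg against WT Tconv, since Rag2 and Ptcra were not tested. In Foxp3-KO preTreg against WT Tconv, 1 passed with median scaling, with no filter and with only these 2 populations fitted, where 5027, 2146 and 1285 of all genes passed, against 3326 in the reported fit. In Nr4a-TKO preTreg against WT Treg, 1 passed under the same 3 settings and 4 with array weights. In Foxp3-KO preTreg against WT Treg, 1 passed with no filter, with array weights and with the replicate block, and 0 in limma with 2 populations (5 at an unadjusted p under 0.05). Of all genes 400 passed there with no filter, 1305 with an intensity trend, 301 with array weights and 0 with 2 populations (2287 unadjusted), against 865. In Nr4a-TKO preTreg against Foxp3-KO preTreg, 0 passed with 2 populations (6 unadjusted), and of all genes 7371 passed with no filter, 2752 with array weights and 893 with 2 populations, against 4558. With median scaling, 1133 genes were higher and 3894 lower in Foxp3-KO preTreg against WT Tconv (1399 and 1927 in the reported fit), 1471 and 4234 in WT Treg against WT Tconv (1867 and 2907), 2898 and 1418 in Nr4a-TKO preTreg against WT Treg (2625 and 2151), and 2759 and 1375 between the knockouts (2435 and 2123).

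Leaving out each array in turn gave 2 to 4 called members and 3080 to 7182 genes in all for Nr4a-TKO preTreg against WT Tconv, 1 to 2 and 470 to 4141 for Foxp3-KO preTreg against WT Tconv, and 2 to 6 and 1655 to 5734 for WT Treg against WT Tconv. It gave 0 to 3 and 2121 to 5837 for Nr4a-TKO preTreg against WT Treg, 0 to 4 and 71 to 1342 for Foxp3-KO preTreg against WT Treg, and 3 to 6 and 2027 to 5336 between the knockouts. The limma counts of 0 came without Nr4a-TKO replicate 1 or WT Treg replicate 2 in Nr4a-TKO preTreg against WT Treg (3 members each at an unadjusted p under 0.05), and without WT Treg replicate 1 or 2 in Foxp3-KO preTreg against WT Treg (6 and 3 members). Signs turned for Rag2 in Foxp3-KO preTreg against WT Tconv (0.0378 with another background correction, 0.2305 with the mean of probes, -0.9882 to 0.7828 without an array), for Rag1 in Nr4a-TKO preTreg against WT Treg (-1.345 to 0.2055), and between the knockouts for Cd8a (-0.6584 to 0.0796) and Cd8b1 (-0.5415 to 0.0565, and 0.0428 without Foxp3-KO replicate 2).

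The replicate numbers were not taken to pair the samples, since same-numbered arrays of different populations correlated at -0.0285 to 0.259 after subtracting population means. With the replicate block, 3, 2 and 4 members passed in Nr4a-TKO preTreg, Foxp3-KO preTreg and WT Treg against WT Tconv, 2 and 1 in Nr4a-TKO preTreg and Foxp3-KO preTreg against WT Treg, and 5 between the knockouts. Genes near background, Rag2 above all, are limited by signal over background.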
